A study of Gossypium hirsutum with 45 samples.

Results

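Leaves and stems of cotton seedlings that had not been treated were compared gene by gene. The comparison used 6 of the 45 RNA sequencing libraries of the series, 3 of leaf and 3 of stem at 0 min. It kept the 44446 of 75376 genes that had an FPKM of at least 1 in at least 3 of the 6. FPKM is here a count of fragments divided by gene length and by a scaling factor of the library. The genes under that filter numbered 30930, of which 11410 had no read in any of the 6 libraries. Differences are leaf minus stem on log2(FPKM + 1), so a positive value is higher in leaf and the difference of a gene with low FPKM is understated.

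The plants were upland cotton (Gossypium hirsutum) of the variety Hengmian HD008 at the stage of 3 leaves, grown in sterilised sand under long days. Leaf and stem at 10, 30, 60 and 180 min in 10% PEG 6000, a polymer that draws water from roots and is used to imitate drought, had 3 libraries for each tissue and time. Untreated root had 3 libraries as well, given here as values only. All groups were of the 1 variety and none carried a transgene. The labels do not say which leaf or which stretch of stem was sampled, nor whether replicates were separate plants or pools. The p-values therefore measure only the spread between these libraries, part of which may be technical.

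A leaf is an organ of determinate growth whose mesophyll cells carry out photosynthesis and export sugar through the phloem. A stem keeps stem cells in its apical meristem and its cambium, elongates between the nodes, and lays down xylem fibres and vessels with thick walls of cellulose, xylan and lignin. Transcription factors of the YABBY family mark leaves and other lateral organs. Class I KNOX factors keep stem cells undifferentiated and are kept silent in developing leaves of many plants. Some WOX factors also maintain stem cells. Class III HD-Zip factors pattern the xylem and the upper side of leaves.

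The 6 libraries held 16975507 to 19226885 reads counted in genes, and a single read per 1 kb of gene came to between 0.0446 and 0.0554 FPKM. The Pearson correlation of log2(FPKM + 1) between replicates was 0.954 for leaf libraries 1 and 2, against 0.883 and 0.917 for leaf library 3 with each of them. Stem libraries 2 and 3 correlated at 0.954, against 0.853 and 0.864 for stem library 1 with each of them. Leaf library 3 and stem library 1 thus stood apart from their groups, and results that change without them are given both ways. With 3 libraries against 3 an exact permutation test of a single gene cannot give a two-sided p below 0.10, so the test rests on limma's model across all tested genes, with p-values adjusted by the Benjamini-Hochberg method over all of them.

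At an adjusted p under 0.05, 10939 genes differed between leaf and stem, 24.6% of those tested. Of these, 6803 were higher in leaf (15.3%) and 4136 were lower (9.31%). The difference was at least 1 on the log2 scale for 4651 genes higher and 2803 lower in leaf, at least 2 for 1393 and 738, and at least 4 for 105 and 45. Without leaf library 2 the counts were 4083 higher and 2018 lower. Without stem library 2 the lower count was 2604, and without stem library 3 it was 2652. Leaving out leaf library 3 and stem library 1 together gave 7743 higher and 5618 lower. The percentages 15.3% and 9.31% are the background for every list of genes at 0 min below, and the median difference of all tested genes was 0.02. Later times have backgrounds of their own, given with their fits.

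Untreated root was set beside the calls by mean FPKM. Root was below both leaf and stem for 59.4% of the genes higher in leaf, between them for 30.5% and above both for 10.1%. For the genes lower in leaf it was below both for 21.7%, between them for 54.0% and above both for 24.3%. Genes of the A subgenome were called at 24.5% and genes of the D subgenome at 24.8%, and single chromosomes ranged between 21.9% (A08) and 27.3% (A04).

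Gene lists were built from words in the deposited descriptions, so a list also holds some genes of other functions. In what follows, parentheses after a gene give chromosome, start and end. A ± after a log2 difference is its standard error from the fit, and n is 3 libraries in each tissue. A gene under 1 FPKM throughout one tissue passed the filter through the other tissue only, so its direction was set by the filter and a count of such genes supports nothing by itself. In bulk tissue, fewer cells of a type and less RNA per cell cannot be told apart.

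**Figure D1:**
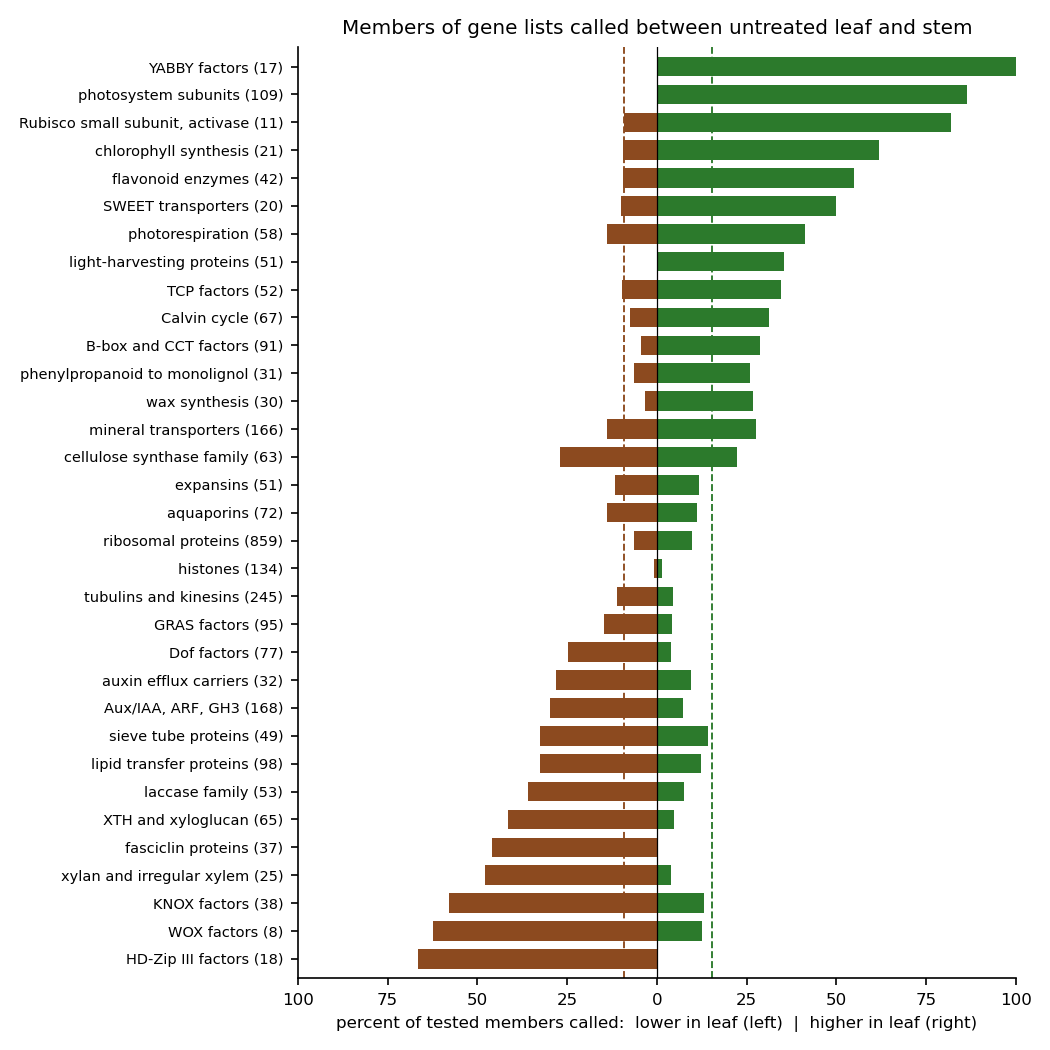
Percent of the tested members of 33 lists called at an adjusted p under 0.05, higher in leaf to the right and lower in leaf to the left, with the number of tested members in parentheses. Dashed lines mark the background over all genes, 15.3% higher and 9.31% lower; YABBY factors fill the right side and HD-Zip III, WOX and KNOX factors reach farthest to the left.

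The labels of the libraries were checked on lists set as marks of each tissue. Of the stem lists, those of KNOX, HD-Zip III, fasciclin and laccase genes leaned to stem. The cellulose synthase list was called on both sides, with 14 of 63 tested genes higher in leaf and 17 lower. Lignin monomer enzymes, also set as a stem list, went the other way, with 8 of 31 higher in leaf and 2 lower. The YABBY family was the clearest mark of leaf. Its 26 genes had a summed level of 263, 164 and 151 FPKM in leaf, against 2.08, 8.95 and 4.19 FPKM in stem, and 0.199 to 0.356 FPKM in root. Of the 17 that passed the filter, 14 did so through leaf only, and 17 were called higher in leaf, with log2 differences between 1.55 and 3.99. For each of the 17 the 3 leaf libraries all lay above the 3 stem libraries. The called genes of every list were separated in this way, so the separation adds nothing to the call. With no filter, 20 of the 26 were called higher in leaf.

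Gohir.D09G100400 (D09, 38857187 to 38863260), a YABBY gene, had 17.6, 16 and 21.3 FPKM in leaf, against 0.0501, 0.422 and 0.193 FPKM in stem. Gohir.A09G101000 (A09, 66946894 to 66953120), a second member, had 18.5, 15.7 and 22 FPKM in leaf, against 0.36, 0.758 and 0.564 FPKM in stem. Gohir.A06G054900 (A06, 10431711 to 10434797) had 13.9, 17.5 and 12.9 FPKM in leaf, against 0, 0.137 and 0 FPKM in stem, and 0 FPKM in all 3 root libraries. The 3 genes lay between 12.9 and 22 FPKM in leaf and under 1 FPKM in every stem library. Their log2 differences were 3.99 ± 0.19, 3.66 ± 0.18 and 3.91 ± 0.17, with adjusted p of 0.000292, 0.000339 and 0.000257.

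KNOX factors, homeodomain proteins with KNOX or ELK domains, ran the other way and fell into 2 sets by their level in leaf. Of 44 genes, 38 were tested, 22 were lower in leaf, 5 were higher and 11 did not pass. All 22 of the lower genes were under 1 FPKM in every leaf library, and 12 of them had no read in any leaf library. With no filter, 23 of the 44 were called lower in leaf. The other members were expressed in both tissues, and none of the higher ones was under 1 FPKM throughout stem.

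Gohir.A06G027200 (A06, 2999142 to 3003992) had 0 FPKM in all 3 leaf libraries, against 33.3, 28.7 and 39.96 FPKM in stem, and 0 to 0.0215 FPKM in root. Gohir.D06G024500 (D06, 2709957 to 2714889) had 0 FPKM in all 3 leaf libraries, against 33.6, 26.8 and 35.6 FPKM in stem. Set against a floor of 3 reads in each leaf library, the mean level was at least 556-fold and at least 539.9-fold lower in leaf (adjusted p = 0.00019 and 0.00019). The gene Gohir.A05G213100 (A05, 21447076 to 21452910), chosen after its values were seen, had 0 FPKM in all 3 leaf libraries, against 24.8, 26.2 and 34.1 FPKM in stem, at least 397-fold lower in leaf. No leaf library held a read of these 3 genes, and the lowest stem value among them was 24.8 FPKM.

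Homeobox protein knotted-1-like 3, a class II KNOX gene in Arabidopsis, names a pair of members that differed in pattern. Gohir.D13G188500 (D13, 59171561 to 59175034), with that name, had 26.2, 26.3 and 25.9 FPKM in leaf, against 1.65, 1.04 and 1.38 FPKM in stem. Gohir.A06G099900 (A06, 39019407 to 39024085), with the same name, had 16.1, 16.1 and 42.6 FPKM in leaf, against 41.4, 22.9 and 26.5 FPKM in stem, with groups that overlapped (adjusted p = 0.574). Gohir.A13G180600 (A13, 105844917 to 105848349), which has only domain names in the table, had 24.5, 23.9 and 23.5 FPKM in leaf, against 0.706, 0.91 and 1.1 FPKM in stem. All 3 were chosen after their values were seen. Log2 differences came to 3.53 ± 0.15 and 3.72 ± 0.14 for the D13 and A13 genes, with adjusted p of 0.00022 and 0.00019, and root lay between the tissues at 11 to 14.4 FPKM in root for the first. The KNOX gene with the highest mean level, Gohir.D06G102100 (D06, 23988634 to 23993217), had 29.4, 29.2 and 64.8 FPKM in leaf, against 48.1, 34.6 and 57.8 FPKM in stem. Its groups overlapped and it did not pass the test at 0 min (adjusted p = 0.662).

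**Figure D2:**
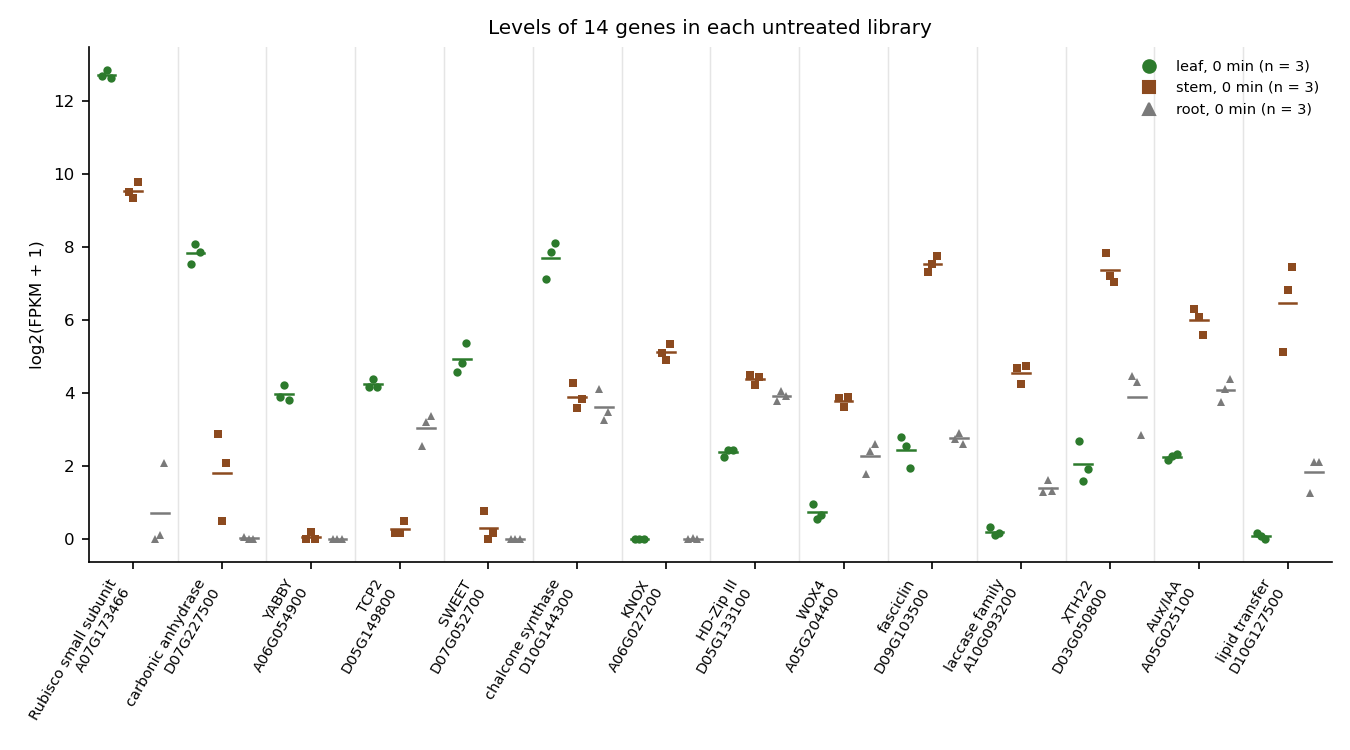
Level of 14 genes as log2(FPKM + 1) in each library at 0 min, with leaf as circles, stem as squares and root as triangles, and a bar at the mean of the 3 libraries of a tissue. The 6 genes on the left lie higher in all leaf libraries than in any stem library, and the 8 on the right lie lower in all leaf libraries than in any stem library.

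Class III HD-Zip factors, which carry a MEKHLA domain, were expressed in both tissues. All 18 genes were tested, 12 were lower in leaf and 0 were higher by limma at an adjusted p under 0.05 (unadjusted, 0 were higher). Their summed level was 61.8, 59 and 51.1 FPKM in leaf, against 159, 142 and 150.3 FPKM in stem, and 136 to 171 FPKM in root. For all 12 of the lower genes the root mean also exceeded the leaf mean. Over all genes lower in leaf, the root mean was between the tissues for 54.0% and above both for 24.3%. Gohir.D05G133100 (D05, 11403156 to 11410094) had 3.71, 4.45 and 4.39 FPKM in leaf, against 21.4, 17.7 and 20.6 FPKM in stem. Gohir.A05G128600 (A05, 12768373 to 12775537) had 4.94, 5.27 and 5.9 FPKM in leaf, against 25.3, 18.5 and 18.2 FPKM in stem. On the log2 scale the differences were -2.01 ± 0.14 and -1.75 ± 0.17, with adjusted p of 0.000684 and 0.0014, and the highest leaf value stayed under the lowest stem value for both.

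WOX4 keeps the cambium dividing in Arabidopsis. Of the 14 WUSCHEL-related homeobox genes 8 were tested, 5 were lower in leaf and 1 was higher. Gohir.A05G204400 (A05, 20628004 to 20629930), named WUSCHEL-related homeobox 4, had 0.958, 0.463 and 0.585 FPKM in leaf, against 13.5, 11.2 and 13.8 FPKM in stem, and 2.44 to 5.09 FPKM in root. Gohir.D02G090600 (D02, 17951090 to 17952679), also named WOX4, had 0.25, 0.174 and 0.0445 FPKM in leaf, against 3.15, 3.26 and 2.5 FPKM in stem. The fit gave log2 differences of -3.06 ± 0.18 and -1.78 ± 0.17, with adjusted p of 0.000465 and 0.00139. In contrast, Gohir.D03G001900 (D03, 148330 to 150192), named WOX13, had 29.2, 30.6 and 38.8 FPKM in leaf, against 49.5, 28.5 and 26 FPKM in stem, with groups that overlapped (adjusted p = 0.958). The lower count was 3 without leaf library 2.

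TCP factors set leaf shape and branching through cell proliferation. Of 52 tested TCP genes (72 in the table), 18 were higher in leaf and 5 were lower. Gohir.D05G149800 (D05, 13079363 to 13085667), named TCP2, a restrainer of cell division in Arabidopsis leaves, had 17, 19.9 and 17 FPKM in leaf, against 0.115, 0.13 and 0.408 FPKM in stem. Gohir.A05G147300 (A05, 14317144 to 14323655), a TCP gene with no further name, had 15.3, 14.7 and 14.4 FPKM in leaf, against 0.483, 0.618 and 0.652 FPKM in stem. Their log2 differences were 3.97 ± 0.17 and 3.32 ± 0.14 (adjusted p = 0.00022 and 0.00022), and root lay between the tissues for the first, with 4.89 to 9.35 FPKM in root. On the other side, Gohir.A12G133100 (A12, 86199484 to 86201735) had 19.2, 19.9 and 21.2 FPKM in leaf, against 39.5, 59.1 and 36.6 FPKM in stem, with a log2 difference of -1.10 ± 0.22 and an adjusted p of 0.0135. Without leaf library 2 its adjusted p was 0.0591. The count of TCP genes lower in leaf was 1 without leaf library 1, 1 without leaf library 2, 2 without leaf library 3, 1 without stem library 2 and 1 without stem library 3.

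Several other families of regulators leaned to one tissue. B-box and CCT factors, which act in light and clock signalling, had 26 of 91 tested members higher in leaf and 4 lower. Gohir.A09G047500 (A09, 44323047 to 44324865), with a B-box and a CCT motif, had 31.2, 51.9 and 16.8 FPKM in leaf, against 0.53, 0.105 and 0.661 FPKM in stem, and a log2 difference of 4.47 ± 0.40 and an adjusted p of 0.00125. The B-box count higher in leaf was 14 without leaf library 1, 17 without leaf library 2, 17 without stem library 2 and 16 without stem library 3. The B-box count lower in leaf was 2 without leaf library 1, 2 without leaf library 2, 1 without leaf library 3, 2 without stem library 2 and 2 without stem library 3. Dof zinc finger factors, several of which act in vascular tissue, had 19 of 77 lower in leaf and 3 higher. Gohir.D05G201940 (D05, 17972556 to 17973290), named DOF1.6, had 2.26, 3.24 and 2.41 FPKM in leaf, against 25.1, 22.2 and 24.2 FPKM in stem, and a log2 difference of -2.78 ± 0.16 and an adjusted p of 0.000432. The Dof count lower in leaf was 9 without leaf library 2 and 11 without stem library 3, and the count higher was 1 without leaf library 2.

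**Figure D3:**
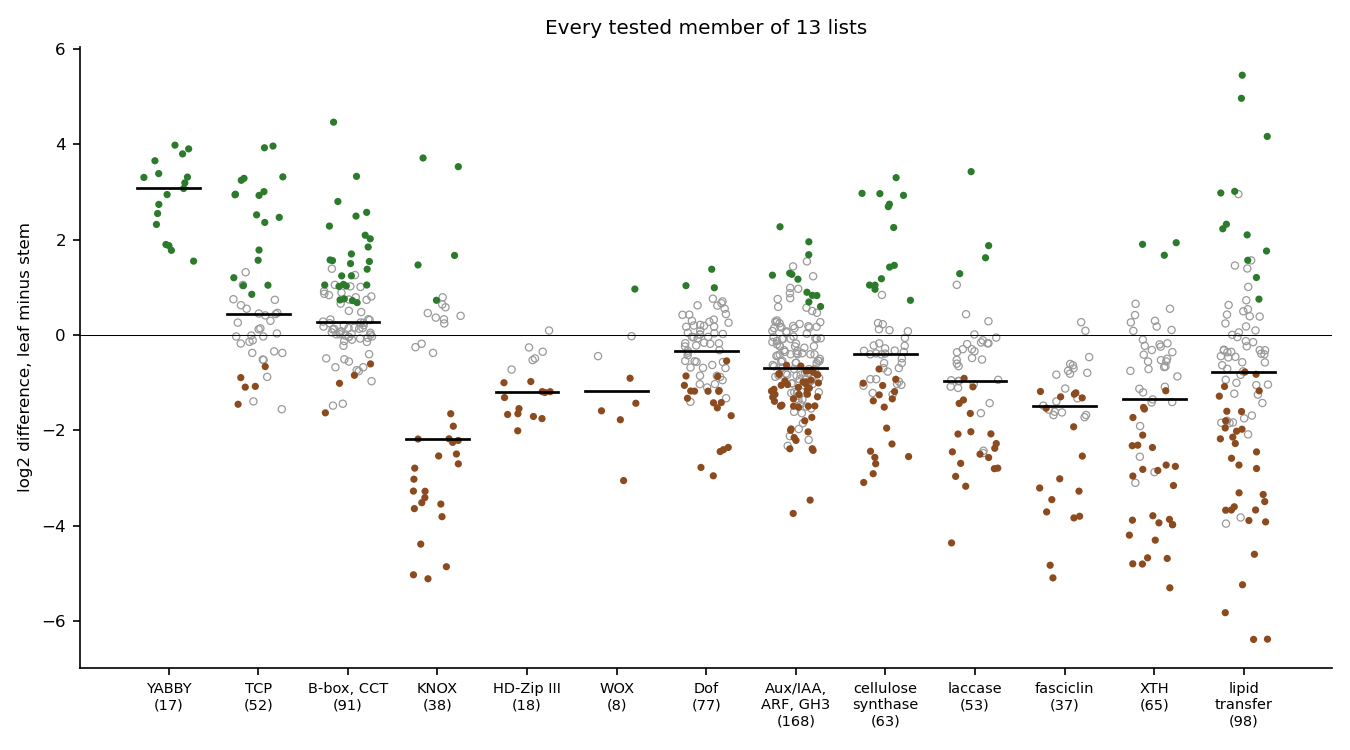
Log2 difference, leaf minus stem, of every tested member of 13 lists, with the number tested in parentheses. Filled points passed an adjusted p of 0.05, open grey points did not, and black bars are medians; YABBY points all lie above 0, and KNOX points split into a group below -1.6 and a group around or above 0.

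Photosynthesis lists leaned to leaf, to different degrees. Photosystem subunits and proteins of the oxygen evolving complex, which split water, had 94 of 109 tested members higher in leaf and 0 lower, with a median log2 difference of 1.78. At an unadjusted p under 0.05 limma gave 1 lower, and the lower count was 1 without stem library 2 and 1 without stem library 3. Their summed level was 13440.3, 13732 and 10373 FPKM in leaf, against 2710.5, 3275 and 3588 FPKM in stem. Gohir.D13G146400 (D13, 51007416 to 51008576), PsbQ of the oxygen evolving complex, had 39.5, 46.4 and 41.7 FPKM in leaf, against 1.51, 2.12 and 2.37 FPKM in stem. Gohir.D01G153400 (D01, 52850035 to 52850640), named psbY, had 642, 786 and 445 FPKM in leaf, against 43.5, 86.6 and 83.9 FPKM in stem. Fitted log2 differences were 3.87 ± 0.16 and 3.14 ± 0.37, with adjusted p of 0.00022 and 0.00227. Every stem library held reads of both genes, at a lower level.

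The small subunit of Rubisco, the enzyme that fixes carbon dioxide, and its activase summed to 17518, 19769.5 and 19511 FPKM in leaf, against 2187, 1721 and 2619 FPKM in stem. Of 11 tested genes 9 were higher in leaf and 1 was lower, the last count being 0 without leaf library 1, 0 without leaf library 2 and 0 without leaf library 3. Gohir.A07G173466 (A07, 79459862 to 79460867), a small subunit gene and the member with the highest mean, had 6555, 7354 and 6334 FPKM in leaf, against 723, 655 and 888 FPKM in stem. Gohir.D11G169700 (D11, 18616089 to 18617205), another small subunit gene, had 797, 962 and 1234 FPKM in leaf, against 33.7, 6.57 and 14 FPKM in stem. The pair differed by log2 values of 3.17 ± 0.32 and 5.96 ± 0.55 (adjusted p = 0.00148 and 0.00131), and the highest stem library of the second gene held 33.7 FPKM. Gohir.A05G142900 (A05, 13919023 to 13923892), Rubisco activase, which frees the enzyme from bound sugar phosphates, had 10.9, 12.6 and 11.9 FPKM in leaf, against 4.02, 2.98 and 3.52 FPKM in stem, and a log2 difference of 1.51 ± 0.15 and an adjusted p of 0.0014.

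Light-harvesting proteins, the chlorophyll a/b antenna, varied widely among the leaf libraries. Their sums were 4041, 2704 and 1000.2 FPKM in leaf, against 632, 953 and 897 FPKM in stem. Leaf library 3 lay close to the stem libraries and the other leaf libraries far above them. Of 51 tested members 18 were higher in leaf, and the count was 42 without leaf library 3. By limma 0 were lower (0 unadjusted), and 1 without stem library 1. Gohir.A10G235100 (A10, 117139760 to 117143427), CP29.3 of photosystem II, had 16.1, 13.7 and 15.6 FPKM in leaf, against 0.23, 0.659 and 0.222 FPKM in stem, and a log2 difference of 3.57 ± 0.18 and an adjusted p of 0.000348. Gohir.D07G015500 (D07, 1737208 to 1739628), antenna protein 6 of photosystem I, had 44.5, 42.3 and 32.2 FPKM in leaf, against 6.03, 7.04 and 7.34 FPKM in stem, and a log2 difference of 2.37 ± 0.18 and an adjusted p of 0.000743. These genes of lower level were similar across the 3 leaf libraries. The antenna gene with the highest mean, Gohir.D01G217600 (D01, 64883428 to 64884927), had 378, 314 and 97.2 FPKM in leaf, against 111, 139 and 146 FPKM in stem, so that its groups overlapped (adjusted p = 0.338). Without leaf library 3 its log2 difference was 1.39 at an adjusted p of 0.0183.

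**Figure D4:**
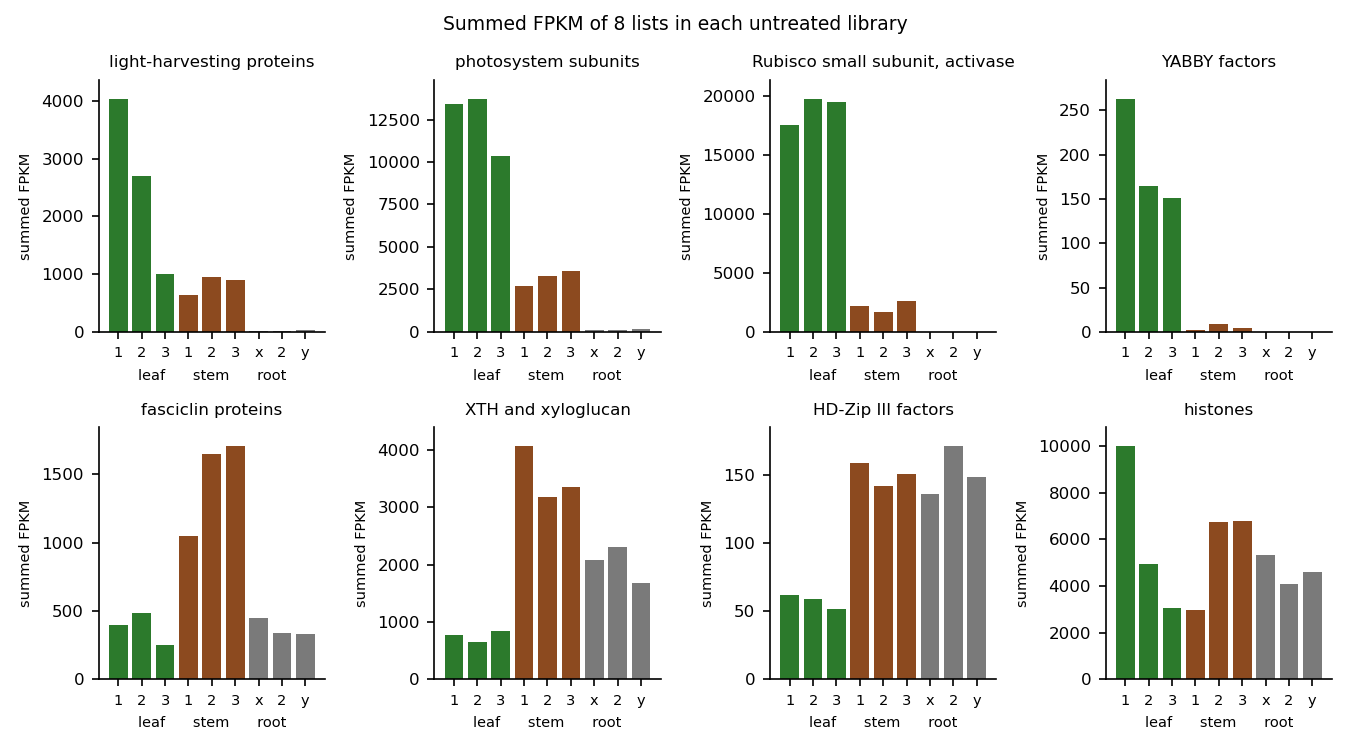
Summed FPKM of 8 lists in each library at 0 min, with leaf libraries 1 to 3, stem libraries 1 to 3 and root; the root columns x and y share 1 name in the table and carry no replicate number. Rubisco and YABBY sums are high in each leaf library and low in each stem library, while leaf library 3 falls to the stem level for light-harvesting proteins and the histone sums of leaf and stem overlap.

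Among enzymes that support photosynthesis, carbonic anhydrase, which speeds the supply of carbon dioxide to Rubisco, was among the genes with the largest differences. Gohir.D07G227500 (D07, 57700380 to 57705532) had 186, 273 and 233 FPKM in leaf, against 6.28, 0.395 and 3.24 FPKM in stem. Gohir.D09G026100 (D09, 8143017 to 8149508) had 149, 281 and 247 FPKM in leaf, against 5.85, 0.886 and 2.77 FPKM in stem. Log2 differences came to 6.03 ± 0.58 and 5.90 ± 0.50 (adjusted p = 0.00145 and 0.00105), and stem library 1 was the highest stem library for both. Gohir.D11G067900 (D11, 5809888 to 5810801), a homolog of Lir1, a light-regulated chloroplast protein of rice, had 145, 93.1 and 111 FPKM in leaf, against 0.812, 0.498 and 0.57 FPKM in stem, and a log2 difference of 6.16 ± 0.20 and an adjusted p of 0.00019.

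In the Calvin cycle list, which rebuilds the acceptor of carbon dioxide, 21 of 67 tested members were higher in leaf and 5 lower, the lower count being 3 without leaf library 1, 3 without leaf library 2 and 3 without stem library 3. Gohir.A11G328500 (A11, 124028960 to 124030883), a fructose-1,6-bisphosphatase, had 68.6, 80.9 and 79.4 FPKM in leaf, against 13.2, 11.5 and 14.6 FPKM in stem, and a log2 difference of 2.46 ± 0.17 and an adjusted p of 0.000655. For photorespiration, which recovers carbon lost when Rubisco takes up oxygen, 24 of 58 were higher and 8 lower. Gohir.A01G040900 (A01, 3582490 to 3586302), a peroxisomal glycolate oxidase named GLO1, had 301, 412 and 457 FPKM in leaf, against 37.3, 20.8 and 31.9 FPKM in stem, and a log2 difference of 3.67 ± 0.30 and an adjusted p of 0.000916. Neither gene had a read in any root library, and leaf and stem did not overlap for either.

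Chlorophyll synthesis leaned to leaf, with exceptions. Of 21 tested chlorophyll genes 13 were higher in leaf and 2 lower. The count higher was 8 without leaf library 2, and the count lower was 1 without leaf library 2, 1 without leaf library 3, 1 without stem library 1, 1 without stem library 2 and 1 without stem library 3. Gohir.D04G132200 (D04, 48802989 to 48806947), chlorophyll synthase, which attaches the lipid tail, had 39.7, 39.9 and 37 FPKM in leaf, against 10.9, 12.7 and 13.1 FPKM in stem, with a log2 difference of 1.59 ± 0.15 and an adjusted p of 0.00123. Gohir.A05G235300 (A05, 24319249 to 24323280), named chlorophyllide a oxygenase, the enzyme that makes chlorophyll b, had 3.63, 3.07 and 1.48 FPKM in leaf, against 17.8, 12.3 and 12.2 FPKM in stem, with a log2 difference of -2.05 ± 0.28 and an adjusted p of 0.00382. The oxygenase gene thus lay lower in every leaf library than in any stem library. Gohir.A08G009500 (A08, 1110340 to 1110894), protein L12 of the plastid ribosome, had 359, 324 and 254 FPKM in leaf, against 52.6, 65.5 and 77.9 FPKM in stem, with a log2 difference of 2.24 ± 0.25 and an adjusted p of 0.002. The list of all ribosomal proteins, plastid and cytosolic, had 84 of 859 higher and 55 lower, under the background in both directions.

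Starch genes split between the tissues. Of 92 tested members 20 were higher in leaf and 17 lower, with different forms of starch synthase on each side. Gohir.A10G038700 (A10, 3578476 to 3585359), starch synthase 4, had 16.9, 16.8 and 21.7 FPKM in leaf, against 2.32, 1.53 and 2.22 FPKM in stem, with a log2 difference of 2.69 ± 0.18 and an adjusted p of 0.000611. Gohir.D10G012300 (D10, 1026209 to 1032590), starch synthase 3, had 3.63, 3.17 and 2.7 FPKM in leaf, against 14.2, 14.1 and 13.9 FPKM in stem, with a log2 difference of -1.86 ± 0.14 and an adjusted p of 0.000766. Leaf and stem did not overlap for either form, and root lay near stem for the second at 10.4 to 12.7 FPKM in root. The starch count higher in leaf was 12 without leaf library 1, 12 without leaf library 2 and 10 without stem library 2. The starch count lower in leaf was 10 without leaf library 2 and 10 without stem library 3.

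Several lists of the growing and thickening wall leaned towards stem. Fasciclin-like arabinogalactan proteins, cell surface glycoproteins of which FLA12 is tied to the secondary walls of Arabidopsis stems, summed to 398, 482 and 251 FPKM in leaf, against 1052, 1653 and 1708 FPKM in stem. Of 37 tested genes 17 were lower in leaf and 0 higher by limma (0 unadjusted), at a median difference of -1.48, and the lower count was 27 without stem library 1. Gohir.D09G103500 (D09, 39382008 to 39382739) had 5.95, 4.87 and 2.87 FPKM in leaf, against 158, 185 and 214 FPKM in stem. Gohir.A09G106800 (A09, 67723488 to 67724219), named FLA12, had 6.44, 6.27 and 4.99 FPKM in leaf, against 121, 220.3 and 276 FPKM in stem. On the log2 scale the differences were -5.10 ± 0.26 and -4.83 ± 0.32 (adjusted p = 0.000352 and 0.000615), and root was near the leaf level with 5.11 to 6.55 FPKM in root for the first. Gohir.D11G343800 (D11, 72443435 to 72444313), a member of lower level, had 0.295, 0.246 and 0.252 FPKM in leaf, against 14.8, 13.7 and 18.8 FPKM in stem, with a log2 difference of -3.71 ± 0.17 and an adjusted p of 0.000262.

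Xyloglucan endotransglucosylases (XTH) cut and rejoin xyloglucan, the polymer that ties cellulose fibrils together. Their summed level was 768, 648 and 833 FPKM in leaf, against 4073, 3172 and 3348 FPKM in stem, and 1679.7 to 2302 FPKM in root. Of 65 tested genes 27 were lower in leaf, 23 of them by at least 2 on the log2 scale, and 3 were higher. Gohir.D03G050800 (D03, 8334415 to 8336016), named XTH22, an enzyme induced by touch in Arabidopsis, had 5.39, 2.0 and 2.81 FPKM in leaf, against 229.8, 148 and 131 FPKM in stem, with a log2 difference of -5.31 ± 0.34 and an adjusted p of 0.000615. Gohir.A08G022400 (A08, 2808068 to 2809310), the XTH gene with the highest mean, had 44.6, 25 and 62.9 FPKM in leaf, against 593, 274 and 218 FPKM in stem, with a log2 difference of -2.96 ± 0.49 and an adjusted p of 0.00746. Gohir.A08G200500 (A08, 121229955 to 121233191) had 2.28, 1.92 and 3.25 FPKM in leaf, against 96.3, 28.2 and 44 FPKM in stem, with a log2 difference of -3.87 ± 0.44 and an adjusted p of 0.00214. For all 3 genes stem library 1 was the highest of the stem libraries, and no leaf library reached a stem library.

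Expansins loosen walls without cutting them. Of 51 tested genes 6 were higher in leaf and 6 lower, shares near the background in both directions. Gohir.A08G159900 (A08, 112879884 to 112881420) had 34.8, 34.9 and 31.4 FPKM in leaf, against 0.478, 0.134 and 0 FPKM in stem, with a log2 difference of 4.87 ± 0.18 and an adjusted p of 0.00019. Gohir.A01G172600 (A01, 108309185 to 108310693) had 32.7, 18.2 and 24.3 FPKM in leaf, against 327, 258 and 207 FPKM in stem, with a log2 difference of -3.36 ± 0.29 and an adjusted p of 0.00105. Gohir.D01G163700 (D01, 56446747 to 56448314), named expansin-like A2, had 35.6, 19.97 and 32.5 FPKM in leaf, against 425, 224 and 161 FPKM in stem, with a log2 difference of -3.08 ± 0.41 and an adjusted p of 0.0036. The first gene was nearly silent in stem, and the other pair lay higher in every stem library than in any leaf library. The expansin count higher in leaf was 3 without leaf library 2, 11 without leaf library 3 and 3 without stem library 3. The expansin count lower in leaf was 12 without stem library 1.

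The cellulose synthase list held genes on both sides, with 14 of 63 tested genes higher in leaf and 17 lower. Subunits of cellulose synthase itself carry a zinc-binding RING finger, as does the D group of cellulose synthase-like proteins. Gohir.A08G045800 (A08, 6506818 to 6512473), which has the finger, had 1.47, 1.11 and 1.42 FPKM in leaf, against 42.1, 11.2 and 14 FPKM in stem. Gohir.D08G056300 (D08, 5918152 to 5923811), with the same domains, had 1.93, 1.74 and 1.59 FPKM in leaf, against 42.9, 12.4 and 14.1 FPKM in stem. Both were chosen after their values were seen, and their log2 differences were -3.10 ± 0.47 and -2.91 ± 0.45 (adjusted p = 0.00541 and 0.00587). Stem library 1 was the highest stem library for both, and each stem library exceeded each leaf library. Gohir.D11G245900 (D11, 53009008 to 53022197), which lacks the finger in its description, had 6.63, 6.68 and 8.32 FPKM in leaf, against 0.0452, 0.0571 and 0.0218 FPKM in stem, with a log2 difference of 2.97 ± 0.16 and an adjusted p of 0.000427. The cellulose synthase count lower in leaf was 11 without leaf library 1, 11 without leaf library 2 and 27 without stem library 1.

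Xylan is the main non-cellulosic polymer of secondary walls. The list built on its words and on irregular xylem mutants held 25 tested genes, of which 12 were lower in leaf and 1 was higher. Its 18 genes with xylan annotations had 7 lower and 0 higher by limma (0 unadjusted). The rest were 3 cinnamoyl-CoA reductases of lignin synthesis, with 1 higher and 1 lower, 2 laccases, both lower, and 2 cellulose synthase subunits, both lower. Gohir.A09G247100 (A09, 85120750 to 85124341), named IRREGULAR XYLEM 15 after a mutant with collapsed vessels, had 0.36, 0.15 and 0.346 FPKM in leaf, against 5.55, 2.6 and 2.2 FPKM in stem, with a log2 difference of -1.72 ± 0.30 and an adjusted p of 0.00816. The count of the whole list lower in leaf was 4 without leaf library 1, 4 without leaf library 2, 7 without leaf library 3 and 6 without stem library 3. Laccases and other multicopper oxidases, some of which polymerise lignin, had 19 of 53 tested genes lower in leaf and 4 higher, out of 176 in the table. Gohir.A10G093200 (A10, 18590336 to 18593728) had 0.257, 0.0804 and 0.11 FPKM in leaf, against 24.7, 18.1 and 25.9 FPKM in stem, with a log2 difference of -4.37 ± 0.18 and an adjusted p of 0.00022. Gohir.A11G045600 (A11, 4492785 to 4496010), a homolog of ascorbate oxidase, had 60.4, 59.4 and 57.8 FPKM in leaf, against 239, 380.5 and 271 FPKM in stem, with a log2 difference of -2.28 ± 0.24 and an adjusted p of 0.00172. Gohir.A12G093300 (A12, 73373955 to 73376677) had 34, 27 and 55.4 FPKM in leaf, against 4.36, 1.79 and 1.96 FPKM in stem, with a log2 difference of 3.43 ± 0.35 and an adjusted p of 0.00169, and 50.04 to 104 FPKM in root. The laccase count lower in leaf was 12 without leaf library 1 and 11 without leaf library 2, and the count higher was 2 without leaf library 2, 2 without leaf library 3, 2 without stem library 2 and 2 without stem library 3.

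Enzymes that lead from phenylalanine to the lignin monomers lay on both sides. Of 31 tested genes 8 were higher in leaf and 2 lower. Without leaf library 3 and stem library 1 the counts were 6 higher and 5 lower, at 10 min they were 4 and 5, and at 30 min 3 and 5. Over all tested genes 11.0% were higher and 8.37% lower at 10 min, and 12.4% and 10.7% at 30 min. The members higher at 0 min included the first steps, which also feed the flavonoids. Gohir.D01G203300 (D01, 63458884 to 63462168), of the phenylalanine ammonia-lyase family, had 50.3, 88.6 and 79.7 FPKM in leaf, against 3.01, 4.2 and 4.55 FPKM in stem, with a log2 difference of 3.88 ± 0.26 and an adjusted p of 0.000599. Gohir.A01G214800 (A01, 117924279 to 117927551), of the same family, had 29.1, 52.5 and 40.5 FPKM in leaf, against 1.49, 1.85 and 2.37 FPKM in stem. Gohir.A13G235200 (A13, 111569288 to 111571672), cinnamate 4-hydroxylase, had 73.2, 118 and 121 FPKM in leaf, against 14.8, 7.97 and 13.6 FPKM in stem, with a log2 difference of 3.01 ± 0.31 and an adjusted p of 0.00151. No stem library reached a leaf library for these genes. The count lower in leaf was 0 without leaf library 1, 0 without leaf library 2, 0 without leaf library 3, 4 without stem library 1 and 0 without stem library 3.

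Flavonoid enzymes, which make flavonols, anthocyanins and condensed tannins, had 23 of 42 tested members higher in leaf and 4 lower, with a median difference of 1.13. Gohir.D10G144300 (D10, 30816792 to 30819276), of the chalcone synthase family at the entry of the pathway, had 138, 233 and 278 FPKM in leaf, against 18.5, 11 and 13.3 FPKM in stem, with a log2 difference of 3.80 ± 0.32 and an adjusted p of 0.00104. Gohir.A05G403200 (A05, 109528547 to 109530376), chalcone isomerase, had 99.8, 152 and 192 FPKM in leaf, against 14.8, 11.2 and 15.2 FPKM in stem, with a log2 difference of 3.30 ± 0.28 and an adjusted p of 0.00104. Gohir.D12G173800 (D12, 51604692 to 51607796), leucoanthocyanidin reductase, which makes units of condensed tannin, had 311, 456 and 581 FPKM in leaf, against 43, 33 and 76.4 FPKM in stem, with a log2 difference of 3.16 ± 0.39 and an adjusted p of 0.00264. These 3 genes, from the entry and near the end of the pathway, lay on the same side, and leaf library 1 was the lowest leaf library for each. Not all steps did so. A gene named flavonoid 3'-monooxygenase was lower in leaf, at a log2 difference of -3.27 and an adjusted p of 0.00791. Another gene of that name did not pass (adjusted p = 0.878). Among flavonoid genes the count lower in leaf was 1 without leaf library 1, 1 without leaf library 2, 2 without leaf library 3, 1 without stem library 2 and 1 without stem library 3.

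Surface lipids gave differences in both directions. Lipid transfer proteins, small secreted carriers of lipids, had 32 of 98 tested genes lower in leaf and 12 higher, out of 264 in the table, and 16 of the lower ones were under 1 FPKM throughout leaf. Gohir.D10G116200 (D10, 19176628 to 19177384) had 19.9, 10.7 and 14.3 FPKM in leaf, against 468, 642 and 672 FPKM in stem, with a log2 difference of -5.24 ± 0.29 and an adjusted p of 0.000421. Gohir.D10G127500 (D10, 23084859 to 23085764) had 0.114, 0.0596 and 0 FPKM in leaf, against 34.1, 112 and 175 FPKM in stem, with a log2 difference of -6.39 ± 0.56 and an adjusted p of 0.00117. Gohir.A10G139300 (A10, 78969645 to 78969941) had 0 FPKM in all 3 leaf libraries, against 59.4, 67.2 and 141 FPKM in stem, at least 159-fold lower in leaf against a floor of 3 reads. These genes were among those with the most extreme differences towards stem, and root held intermediate levels for the last of them at 2.22 to 9.99 FPKM in root.

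In wax synthesis 8 of 30 tested genes were higher in leaf and 1 was lower. Gohir.D07G113700 (D07, 16145881 to 16151901), a fatty acid hydroxylase of the WAX2 type, a kind that acts in cuticular alkane synthesis in Arabidopsis, had 85.7, 118 and 127 FPKM in leaf, against 0.747, 0.693 and 2.38 FPKM in stem, with a log2 difference of 5.67 ± 0.31 and an adjusted p of 0.000454. A further list, of ketoacyl-CoA synthases, which elongate fatty acids, had 10 of 36 tested genes higher in leaf and 5 lower, at a median difference of 0.38. Without leaf library 3 and stem library 1 these counts were 13 and 9. From that list, Gohir.A05G193500 (A05, 19193329 to 19195586), named 3-ketoacyl-CoA synthase 4, had 4.43, 5.19 and 4.76 FPKM in leaf, against 23, 23.2 and 17.4 FPKM in stem, with a log2 difference of -1.93 ± 0.16 and an adjusted p of 0.00102. The hydroxylase gene was thus higher in leaf and this 1 synthase gene lower, with no overlap of the libraries. The wax count higher in leaf was 4 without leaf library 2, 4 without stem library 2 and 5 without stem library 3. The wax count lower in leaf was 2 without leaf library 1, 2 without stem library 1 and 2 without stem library 3.

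SWEET sugar carriers were mostly higher in leaf where they differed. Some SWEET proteins let sucrose out of cells ahead of phloem loading, and others carry other sugars. Of 20 tested genes of the whole family 10 were higher in leaf and 2 lower. Gohir.D07G052700 (D07, 5830145 to 5832473) had 22.8, 27.1 and 40.6 FPKM in leaf, against 0.694, 0 and 0.118 FPKM in stem, with a log2 difference of 4.61 ± 0.29 and an adjusted p of 0.000559. Gohir.D12G194300 (D12, 54717649 to 54719376) had 21.5, 38.3 and 40.5 FPKM in leaf, against 1.86, 0.95 and 2.34 FPKM in stem, with a log2 difference of 3.65 ± 0.31 and an adjusted p of 0.00107. Gohir.A12G192200 (A12, 100396827 to 100398601), named SWEET10, had 27.5, 49.4 and 48.1 FPKM in leaf, against 9.39, 1.97 and 4.47 FPKM in stem, with a log2 difference of 2.90 ± 0.48 and an adjusted p of 0.00743. The 3 genes were higher in each leaf library than in any stem library. Gohir.A02G060900 (A02, 10195282 to 10199875), named SUC2, the carrier that loads sucrose into the phloem in Arabidopsis, had 107, 158 and 191 FPKM in leaf, against 141, 31.5 and 43.4 FPKM in stem, so that stem library 1 fell within the range of leaf and the gene did not pass (adjusted p = 0.145). Without stem library 1 its log2 difference was 1.97 at an adjusted p of 0.00867. The SWEET count lower in leaf was 1 without leaf library 1, 1 without leaf library 2, 1 without leaf library 3 and 1 without stem library 2.

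Aquaporins, the water channels, had 8 of 72 tested genes higher in leaf and 10 lower, shares near the background in both directions. Gohir.D10G089200 (D10, 11593805 to 11595509) had 77.3, 69.2 and 60.3 FPKM in leaf, against 14.6, 15.8 and 15.6 FPKM in stem, with a log2 difference of 2.09 ± 0.16 and an adjusted p of 0.000861. Gohir.D09G145700 (D09, 45202073 to 45203449) had 1.02, 0.267 and 1.37 FPKM in leaf, against 11.7, 18.2 and 25.2 FPKM in stem, with a log2 difference of -3.35 ± 0.34 and an adjusted p of 0.00166. The aquaporin count higher in leaf was 5 without leaf library 2, and the count lower was 20 without stem library 1. Carriers of nitrate, phosphate, potassium and other minerals had 46 of 166 higher in leaf and 23 lower. Gohir.D12G163300 (D12, 50081373 to 50083962), of the nitrate and peptide transporter family (NPF5.5), had 49.3, 55.6 and 78.2 FPKM in leaf, against 4.57, 5.93 and 5.73 FPKM in stem, with a log2 difference of 3.25 ± 0.21 and an adjusted p of 0.000594. The mineral count higher in leaf was 26 without leaf library 2, 28 without stem library 2 and 28 without stem library 3, and the count lower was 14 without leaf library 2 and 15 without leaf library 3. Sieve tube proteins had 16 of 49 lower and 7 higher. The called genes with sieve element occlusion names or domains were all lower in leaf, at log2 differences between -2.72 and -1.33. Phloem protein 2 genes were called in both directions, and the gene that follows is from the higher side. Gohir.A09G203200 (A09, 80841299 to 80842719), phloem protein 2, had 13, 13.1 and 14.2 FPKM in leaf, against 1.4, 0.53 and 0.606 FPKM in stem, with a log2 difference of 2.99 ± 0.21 and an adjusted p of 0.000657. The sieve tube count lower in leaf was 10 without leaf library 1, 5 without leaf library 2 and 8 without stem library 2, and the count higher was 4 without leaf library 1, 3 without leaf library 2, 4 without stem library 2 and 1 without stem library 3.

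Aux/IAA, auxin response factor and GH3 genes were mostly lower in leaf where they differed. Aux/IAA proteins repress the response to auxin and are themselves induced by it. With response factors and GH3 enzymes they made up 168 tested genes, of which 50 were lower in leaf and 12 higher. Gohir.A05G025100 (A05, 2547448 to 2549745), an Aux/IAA gene, had 3.53, 3.81 and 3.98 FPKM in leaf, against 78.4, 67.5 and 47.2 FPKM in stem. Gohir.D05G026600 (D05, 2309588 to 2311904), another, had 9.85, 7.23 and 6.66 FPKM in leaf, against 108, 102 and 81.5 FPKM in stem. The fit gave log2 differences of -3.75 ± 0.21 and -3.47 ± 0.21 (adjusted p = 0.000447 and 0.000486). Root lay between the tissues for both, at 12.4 to 20.1 FPKM in root for the first. The auxin count lower in leaf was 33 without leaf library 2. The SAUR family, genes induced early by auxin, had 6 of 86 tested genes higher in leaf and 4 lower, under the background in both directions, and 16 and 10 without leaf library 3 and stem library 1. Cytokinin oxidase breaks cytokinin down, and was higher in leaf in Gohir.D06G002600 (D06, 468890 to 473558), with 13.1, 10.7 and 8.18 FPKM in leaf, against 0.485, 0.306 and 0.0467 FPKM in stem, and a log2 difference of 3.18 ± 0.23 and an adjusted p of 0.000684.

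The summed level of histones varied widely within each tissue. Histones, made during DNA replication, summed to 10023, 4968 and 3055 FPKM in leaf, against 2989, 6743 and 6776 FPKM in stem, so that leaf library 3 was the lowest leaf library and stem library 1 the lowest stem library. Of 134 tested histone genes 2 were higher in leaf and 1 lower, under the background of both directions. Gohir.D03G129300 (D03, 47897910 to 47898353), histone H2B, had 591, 342 and 230.5 FPKM in leaf, against 223, 432 and 429.9 FPKM in stem, with groups that overlapped (adjusted p = 0.943). The histone count higher in leaf was 0 without leaf library 1, 0 without leaf library 2, 1 without leaf library 3 and 1 without stem library 2, and the count lower was 4 without stem library 1. Cyclins had 2 of 73 tested genes higher in leaf and 4 lower, also under the background of both directions. Their lower count fell as far as 1 without leaf library 2, and the higher count rose to 4 without leaf library 3. Among the lower ones, Gohir.D02G165500 (D02, 62244363 to 62247611), cyclin D1-1, which starts the cell cycle, had 7.99, 8.45 and 7.98 FPKM in leaf, against 15.4, 18.2 and 21.3 FPKM in stem, with a log2 difference of -1.07 ± 0.16 and an adjusted p of 0.00478. Whether the share of dividing cells sampled in each library bears on the other lists was not tested.

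Tubulins and kinesins, the microtubules and their motors, had 27 of 245 tested genes lower in leaf and 11 higher. The share lower was near the background and the share higher under it, and the genes named below are from the lower side. Gohir.D05G218000 (D05, 19546120 to 19548101), a tubulin, had 40.9, 59.3 and 37.3 FPKM in leaf, against 336, 456 and 427 FPKM in stem, with a log2 difference of -3.14 ± 0.27 and an adjusted p of 0.00103. Gohir.A05G214700 (A05, 21592983 to 21594706), another, had 16.9, 20.1 and 10.02 FPKM in leaf, against 164, 179 and 176 FPKM in stem, with a log2 difference of -3.43 ± 0.27 and an adjusted p of 0.000872. No leaf library reached a stem library for either. The tubulin and kinesin count lower in leaf was 14 without leaf library 2, 47 without stem library 1, 17 without stem library 2 and 17 without stem library 3. The tubulin and kinesin count higher in leaf was 5 without leaf library 1, 4 without leaf library 2, 6 without stem library 2 and 5 without stem library 3.

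Defence proteins held several of the largest differences towards leaf, although their list had more genes lower in leaf than higher. Its median log2 difference was -0.61, with members between -4.53 and 6.14, and the 4 genes named below are from the higher side. The chitinase, thaumatin and glucanase list had 12 of 104 tested genes higher in leaf and 25 lower, of which 9 and 9 differed by at least 2 on the log2 scale, and the lower count was 15 without leaf library 2. Gohir.D12G228800 (D12, 58493799 to 58494870), a thaumatin, had 131, 105 and 140.0 FPKM in leaf, against 1.38, 0.666 and 0.429 FPKM in stem, with a log2 difference of 6.14 ± 0.23 and an adjusted p of 0.00019. Gohir.D09G064900 (D09, 32308530 to 32310847), a vacuolar beta-1,3-glucanase, had 55.9, 46.1 and 77.5 FPKM in leaf, against 0.118, 0 and 0 FPKM in stem, with a log2 difference of 5.84 ± 0.21 and an adjusted p of 0.00019. Gohir.A12G254900 (A12, 107114278 to 107115177), named hevamine-A after a chitinase of rubber latex, had 310.1, 235 and 366 FPKM in leaf, against 17.5, 0.893 and 3.4 FPKM in stem, with a log2 difference of 5.80 ± 0.79 and an adjusted p of 0.00382. Gohir.D12G254300 (D12, 61061815 to 61062714), of the same glycosyl hydrolase family 18, had 162, 122 and 240.4 FPKM in leaf, against 10.9, 0.248 and 0.284 FPKM in stem, with a log2 difference of 5.98 ± 0.89 and an adjusted p of 0.00524. Root libraries held all 4 genes, with 46.7 to 338 FPKM in root for the last. Stem library 1 was the highest stem library for both family 18 genes.

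Terpene synthases make volatile and defensive terpenes. Gohir.A05G162800 (A05, 16184100 to 16189628), named geranyllinalool synthase, had 40.4, 52.6 and 241 FPKM in leaf, against 4.06, 0.295 and 0.358 FPKM in stem, with a log2 difference of 5.29 ± 0.82 and an adjusted p of 0.00591. Gohir.A05G162900 (A05, 16233490 to 16239167), the next identifier, had 21.8, 28.7 and 91.6 FPKM in leaf, against 0.23, 0.0646 and 0.166 FPKM in stem, with a log2 difference of 5.11 ± 0.51 and an adjusted p of 0.0015. Leaf library 3 was the highest for both, and no stem library reached a leaf library. Of 21 tested genes in the list, out of 112, 6 were higher in leaf and 2 lower, the lower count being 1 without leaf library 2.

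Outside the lists, the described gene with the highest difference towards leaf was Gohir.D09G079900 (D09, 35285732 to 35286798), a cupin, a fold of storage and germin proteins, with 285, 702 and 152 FPKM in leaf, against 0, 3.56 and 4.4 FPKM in stem, and a log2 difference of 6.75 ± 0.80 and an adjusted p of 0.00253. Gohir.D10G223650 (D10, 63260893 to 63261776), named 21 kDa seed protein after a protein of cocoa seeds, had 69.9, 104 and 143 FPKM in leaf, against 0 FPKM in all 3 stem libraries, at least 586-fold higher in leaf against a floor of 3 reads (adjusted p = 0.00022). Towards stem, Gohir.A01G189900 (A01, 113103159 to 113105393), of the zinc alcohol dehydrogenase family, had 9.45, 10.4 and 5.39 FPKM in leaf, against 325, 344 and 379 FPKM in stem, with a log2 difference of -5.26 ± 0.26 and an adjusted p of 0.000339. Gohir.A05G223300 (A05, 22626044 to 22627113), with the plastocyanin-like domain of phytocyanins, had 0.791, 0.11 and 0.62 FPKM in leaf, against 68.9, 42.8 and 55.9 FPKM in stem, with a log2 difference of -5.24 ± 0.25 and an adjusted p of 0.000327. Gohir.A03G158200 (A03, 106168645 to 106170697), an O-methyltransferase, had 0.109, 0.114 and 0.0291 FPKM in leaf, against 34.7, 30.9 and 35.8 FPKM in stem, with a log2 difference of -5.00 ± 0.14 and an adjusted p of 0.00019. Gohir.A13G223900 (A13, 110695514 to 110705006), of the asparagine synthetase family, which stores nitrogen as an amide, had 0.959, 0.125 and 1.02 FPKM in leaf, against 135, 23.4 and 33.9 FPKM in stem, with a log2 difference of -4.89 ± 0.64 and an adjusted p of 0.00351. Stem library 1 was far above the other stem libraries for the last gene, and root exceeded both tissues at 139.8 to 239 FPKM in root.

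Some counts moved by over 1.5 times without leaf library 3 and stem library 1 together. Higher in leaf were then 44 light-harvesting, 13 expansin and 1 histone genes. Lower in leaf were 29 fasciclin, 27 cellulose synthase, 11 expansin, 24 aquaporin, 48 tubulin and kinesin, 41 chitinase and thaumatin, 5 histone, 2 wax and 1 chlorophyll genes. Every one of these counts but those of higher histone and lower chlorophyll genes was larger than with all 6 libraries.

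The same comparison was fitted separately in the libraries at each later time, which share no library with 0 min. Time in PEG and hour of the day ran together and cannot be told apart. At 10 min 4842 genes were higher in leaf (11.0%) and 3685 lower (8.37%), at 30 min 5356 (12.4%) and 4600 (10.7%). At 60 min 8403 (19.2%) and 7262 (16.6%) were called, and at 180 min 6365 (14.7%) and 3577 (8.26%). Of the 6803 genes higher in leaf at 0 min, 56.2%, 50.1%, 67.4% and 49.6% were also called higher at 10, 30, 60 and 180 min. Of the 4136 lower ones, 48.8%, 49.3%, 47.4% and 24.4% were also called lower. The share among the lower genes was thus similar until 60 min and smallest at 180 min, where 170 of them were called higher in leaf instead, against 68 of the higher genes called lower. At all 5 times 1905 genes were higher in leaf and 602 lower.

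Some of the calls at 0 min were made at all 5 times. This was so for 14 of the 17 YABBY genes higher in leaf, 17 of the 22 KNOX genes lower and 4 of the 12 HD-Zip III genes lower. It was so for 13 of the 18 TCP genes higher and 0 of the 5 TCP genes lower, and for 2 of the 5 WOX genes lower. Photosystem subunits had 63 of the 94 higher ones called at all 5 times, and the Rubisco list 8 of the 9. Light-harvesting genes were called higher in 18 cases at 0 min, 46 at 10 min, 36 at 30 min, 37 at 60 min and 16 at 180 min. Over all tested genes 15.3%, 11.0%, 12.4%, 19.2% and 14.7% were called higher at these times. In the wall lists 4 of the 17 fasciclin, 9 of the 27 XTH and 3 of the 19 laccase genes lower in leaf were called at all 5 times. Over all genes it was 1905 of the 6803 higher and 602 of the 4136 lower, and differences between lists in this count were not tested. Flavonoid genes were called higher in 6 cases at 180 min, against 23 at 0 min. The shares of all tested genes called higher were 14.7% and 15.3% at these times.

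A fit over leaf and stem at both 0 and 180 min tested whether the difference between the tissues itself changed. Of 47963 genes tested, 2723 passed (5.68%). Gohir.D03G128300 (D03, 47776425 to 47780202), ACR9, a protein with ACT domains, which bind amino acids, had 11.6, 12.4 and 11.8 FPKM in leaf, against 3.36, 2.81 and 4.03 FPKM in stem at 180 min. At 0 min the same gene had 15.9, 13.4 and 16.4 FPKM in leaf, against 38.2, 33.9 and 32.8 FPKM in stem. It lay lower in all leaf libraries at 0 min and higher in all of them at 180 min, and its difference changed by 2.71 ± 0.20 (adjusted p = 0.000331). Gohir.D12G259100 (D12, 61550234 to 61552474), with a CAP160 repeat, a motif of cold-acclimation proteins, had 7.86, 8.07 and 8.36 FPKM in leaf, against 0 FPKM in all 3 stem libraries at 180 min, and 0 FPKM in all 6 libraries at 0 min (adjusted p of the change = 0.000111). Gohir.D12G228800 (D12, 58493799 to 58494870), the thaumatin above, had 108, 113 and 112 FPKM in leaf, against 105, 256 and 65.2 FPKM in stem at 180 min, where the tissues overlapped, and its difference changed by -6.26 ± 0.57 (adjusted p = 0.000543). The KNOX gene Gohir.D06G102100, which did not differ past the threshold at 0 min, had 75.2, 79 and 80.4 FPKM in leaf, against 10.1, 11.8 and 10.05 FPKM in stem at 180 min, a change of 3.02 ± 0.41 (adjusted p = 0.00366). The ascorbate oxidase homolog Gohir.A11G045600 had 9.86, 6.37 and 8.28 FPKM in leaf, against 1.89, 1.87 and 4.9 FPKM in stem at 180 min, on the opposite side from 0 min, a change of 3.59 ± 0.40 (adjusted p = 0.00158).

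**Figure D5:**
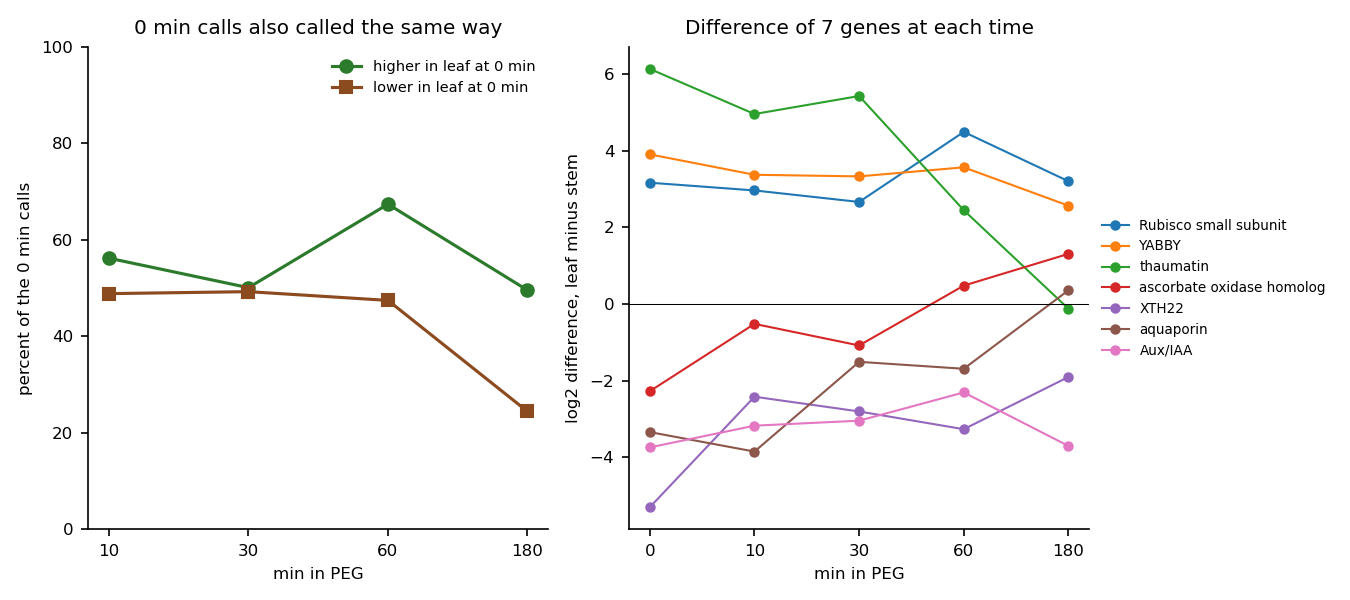
Left, percent of the genes called at 0 min that were called the same way at 10, 30, 60 and 180 min in PEG, for genes higher (circles) and lower (squares) in leaf. Right, log2 difference, leaf minus stem, of 7 genes at 0 to 180 min; the Rubisco, YABBY and Aux/IAA genes keep their side, and the thaumatin, aquaporin and ascorbate oxidase genes end near 0 or on the other side.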

How the data were processed

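Transcript levels were taken from the authors' deposited table of FPKM values, computed per gene and library; the submitters' processing notes name HISAT2 2.0.5 as aligner and featureCounts 1.5.0-p3 as read counter. Multiplied by gene length, 100% of the deposited FPKM values gave whole reads within 0.01 read, so a 0 means that no read was counted. The divisor of each library was not its own total of reads. It equalled a median-of-ratios size factor times the geometric mean of the library totals, within a relative difference of 4.33e-12. That factor is the library's median ratio to the geometric mean of each gene, over the 42188 genes above 0 in all libraries. The genome build, the use of strand and the treatment of reads shared by A and D copies are unstated in the labels, so values of near-identical copies and overlapping genes are uncertain; coordinates are the table's. The RefSeq gene table matched 0 identifiers.

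Genes that reached 1 FPKM in 3 or more of the 6 libraries were fitted as log2(FPKM + 1) in limma 3.58.1 (R 4.3.3; empirical Bayes with trend and robust settings), with Benjamini-Hochberg adjustment and a threshold of 0.05. Later times were fitted in the same way, and the change of the difference at 180 min in 1 fit of 12 libraries. The procedure was tested on simulated data in which few genes differed, where it gave the set directions for the larger differences but called only a minority of the largest and none of the smaller ones after adjustment. Of the table's value columns, 2 of untreated root share 1 name and are called x and y.

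Gene lists and the comparison were chosen with earlier results of these data known. Genes were named by a rule: among described, called genes whose leaf and stem libraries did not overlap, the 12 with the largest difference each way; for each list, the 2 called members with the smallest p and the member with the highest mean; and the 4 genes with the smallest p of change at 180 min. The text names a subset of these and 6 others, chosen after their values were seen. Alternatives were a pseudocount of 0.1, no filter or 5 FPKM, scaling to library totals or quantiles, other sets of libraries in the fit, precision weights (limma voom on the recovered reads), plain empirical Bayes, a test against a log2 difference of 1, a replicate block and leaving out libraries.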

Additional observations from a re-analysis of the deposited data

Results flagged for a closer look

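Of the 94 genes named, 23 had a difference between leaf and stem that itself changed between 0 and 180 min by the fit over both times in limma (adjusted p under 0.05). Many of the 94 were named for the size or the small p of their difference at 0 min. A smaller difference at 180 min is thus not independent of the choice. Some were named for the small p of this very change. Values below are the change of the log2 difference, 180 min minus 0 min, where a positive value means that leaf minus stem was higher at 180 min.

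The change was negative for 6 genes higher in leaf at 0 min, at -3.255 for the Lir1 homolog Gohir.D11G067900, -1.34 for the YABBY gene Gohir.A06G054900, -3.704 for phloem protein 2 (Gohir.A09G203200), -6.262 for the thaumatin Gohir.D12G228800, -1.499 for the glucanase Gohir.D09G064900 and -4.393 for the terpene synthase Gohir.A05G162900. Among the named genes higher in leaf at 0 min, the changes past the threshold were these 6.

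The change was positive for the other 17. Among regulators this was 1.654 for the KNOX gene Gohir.D06G024500 and 1.202 for WOX4 (Gohir.A05G204400), and 3.025 for the KNOX gene Gohir.D06G102100, whose difference at 0 min was -0.26 (adjusted p = 0.662 in limma). For the KNOX gene Gohir.A06G099900, with -0.38 at 0 min (adjusted p = 0.574 in limma), it was 2.827. Among the wall lists it was 2.769 for the multicopper oxidase Gohir.A10G093200, 3.587 for the ascorbate oxidase homolog Gohir.A11G045600, 3.4 for XTH22 (Gohir.D03G050800), 3.183 for the expansin family gene Gohir.A01G172600 and 2.381 for expansin-like A2 (Gohir.D01G163700). Among lipid and transport genes it was 3.244 for the lipid transfer gene Gohir.D10G116200, 1.333 for 3-ketoacyl-CoA synthase 4 (Gohir.A05G193500) and 3.703 for the aquaporin Gohir.D09G145700. For the rest it was 1.91 for chlorophyllide a oxygenase (Gohir.A05G235300), 2.869 for the phytocyanin Gohir.A05G223300, 3.699 for the asparagine synthetase gene Gohir.A13G223900, 2.713 for ACR9 (Gohir.D03G128300) and 3.185 for the CAP160 gene Gohir.D12G259100. The CAP160 gene was below the filter at 0 min, and the others of the 17, apart from Gohir.D06G102100 and Gohir.A06G099900, were lower in leaf at that time. Hour of day ran along with time in PEG, and the part of each was not tested.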

How the results depend on the processing

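Of the counts over all genes, those of calls at 0 min were 6803 higher and 4136 lower in leaf. A test against a log2 difference of 1 gave 1053 and 385, and a filter at 5 FPKM, which leaves fewer genes to test, gave 2543 lower. Leaving out 1 library at a time gave 4083 to 7224 higher and 2018 to 5006 lower, both lowest without leaf library 2; the lower count was also 2604 without stem library 2 and 2652 without stem library 3. The cause was not tested. Without leaf library 2, 62 counts of list members moved by over 1.5 times and 52 did not, and without leaf library 3 and stem library 1 together, chosen after seeing the data, the counts over all genes were 7743 and 5618. The genes called at 0 min and in the same direction later numbered 5843 at 10 min, 5444 at 30 min and 6547 at 60 min, and 3840, 3494 and 4226 with the filter at 5 FPKM. The other alternatives kept these counts and the 2723 genes of the change at 180 min within 1.5 times, and no gene chosen by the naming rule reversed its direction under any of them. Scaling to library totals or quantiles moved the share of calls higher in leaf to 55.7% and 55.1%, against 62.2%, and the median of all genes to -0.05 in both cases, against 0.02.

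With the replicate number as a block, the counts were 5122 higher and 2972 lower at 0 min (replicate block), 5706, 3917, 5352 and 3549 for the calls shared with 10, 30, 60 and 180 min, and 2378 for the change at 180 min. The deviations of same-numbered libraries of leaf and stem from their group means correlated at -0.254, 0.359 and -0.0417. Over all pairs of a leaf and a stem library the range was -0.479 to 0.359, with 0.356 for leaf library 3 and stem library 1. Deviations from a mean of 3 libraries are tied to each other, so these values cannot decide whether the numbers pair the samples. Genes of low level are limited by depth, since a single read per 1 kb came to about 0.05 FPKM, and the pseudocount of 1 shrinks their differences.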

Other observations

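Families defined by Pfam domain were counted in addition, for the 788 families with at least 15 tested genes. They were picked after their values were seen and are given with no test. Against a background of 15.3% higher in leaf, PsbP proteins of photosystem II had 23 of 25 tested members higher, plastid sigma-70 factors 14 of 16, fibrillins of plastid lipid bodies 20 of 25 and the FtsH peptidases of family M41 18 of 31. Outside the plastid, papain-like cysteine proteases had 23 of 37 higher, genes with an S-locus glycoprotein domain 37 of 67 and genes with the galacturonan-binding domain of wall-associated kinases 40 of 72. Against a background of 9.31% lower in leaf, the ALOG proteins (DUF640), regulators of meristem fate in rice and tomato, had 17 of 25 lower, the galactosyl transferase family GMA12/MNN10, which includes xylosyltransferases of xyloglucan, 10 of 15, and LIM domain proteins 10 of 21.

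Some called genes lay side by side as copies of a family. They were picked as groups of at least 4 family members called in the same direction, with a neighbour gap of 100000 bases. The counts below thus follow from the picking and support nothing by themselves. Over all tested genes 15.3% were higher in leaf and 9.31% lower. On D10, 46351677 to 46537920, 6 of 9 beta-amylase genes (glycosyl hydrolase family 14) were lower in leaf and 0 higher. On A04, 85180366 to 85266329, 5 of 5 protein kinase genes were higher in leaf, 4 of them annotated as L-type lectin receptor kinases or with a legume lectin domain. On D05, 60052204 to 60149827, 5 of the 5 tested genes with domain DUF2921 were higher. Neighbouring copies of near-identical sequence can share reads, so these counts are not independent genes.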
